A study of Mus musculus with 2 samples.

Results

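The cells described here are the hepatic immune cells that the study's cell table names Mono, 462 of the 11929 cells with a TG or WT label: 204 of 4647 TG cells and 258 of 7282 WT cells. All 462 lay in a single cluster, number 5 at resolution 1.2, so no comparison of classical with non-classical clusters could be made. TG mice (dnTGFβRII) carry a transgene for a TGF-β receptor II that blocks signalling, driven by the CD4 promoter of the mouse, which is active mainly in T cells, and develop autoimmune bile duct inflammation that models primary biliary cholangitis. The WT animals are C57BL/6, the strain that both libraries share, and the labels give an age of 10 weeks, while the study's methods give a somewhat younger one. CD45+ liver cells were captured in microwells with oligonucleotide-tagged antibodies, and RNA molecules were counted by unique molecular identifiers (UMIs). TG animals shared the first library with IFN-γ ARE-Del-/- animals, which were not used here, as WT animals shared the second with P40-/-IL-2Ra-/- animals, so all TG cells came from 1 library and all WT cells from the other. Genotype and library therefore cannot be told apart, no test between genotypes was possible, and the 95% intervals given below cover counting error only. The number of mice behind each library is not given in the sources used here.

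Monocytes leave the bone marrow through the chemokine receptor CCR2 and enter inflamed liver, where classical (Ly6C-high) cells can become macrophages, while non-classical cells patrol vessels and depend on NR4A1 and CX3CR1. Neutrophils, the other main phagocyte recruited from blood, are released from the marrow and recruited by G-CSF (receptor CSF3R) and by chemokines such as CXCL2 (receptor CXCR2), make their granule proteins as precursors, and release S100A8 and S100A9 in large amounts.

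The data went against the label Mono. The 10 genes that stood highest over all other cells, as the mean log2 ratio in both libraries of counts scaled to 1000000 (CPM), were Il1b, Csf3r, Steap4, Clec4d, Arg2, Cxcr2, Kcnmb2, Hcar2, Asprv1 and Slc40a1. Csf3r and Cxcr2 belong to the neutrophil marker list used here, Slc40a1 (the iron exporter ferroportin) to the Kupffer cell and macrophage list, and none to either monocyte list. Against all other cells, 1014 of 12532 genes (8.09%) were more than 2-fold higher in both libraries and 3202 (25.6%) lower. The cells are therefore called by the deposited name, Mono, or as cluster 5, and no other cell type name is given to them. Since names and clusters were made from the same genes, every difference between named classes below is a description.

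Of the 3 genes proposed as marks of these cells, Ccr2 (chr9:124101950-124113557, GRCm38, plus strand) was close to absent. It stood at 21.7 CPM (95% interval 11.6 to 37.2) in TG and 40.2 CPM (24.9 to 61.4) in WT Mono cells, against 559 and 564 CPM in cells named Macro. With each cell thinned to 1000 UMIs, 0.98% of TG and 2.33% of WT Mono cells held a Ccr2 UMI, close to the 0.655% and 1.87% of mature B cells, which serve as background. Without thinning the shares were 4.41% and 6.59% of Mono cells. Ly6c2 (chr15:75108158-75111970, minus strand), which encodes the surface protein Ly6C, was measured at 436 CPM in TG and at 297 CPM in WT Mono cells, below the 781 and 527 CPM of Macro cells, the 2460 and 2514 CPM of cells named Neu and the 4382 and 3654 CPM of plasmacytoid dendritic cells (pDC). Lyz2 (chr10:117277331-117282321, minus strand), the lysozyme gene of all mature phagocytes, gave 1871 CPM in TG and 1420 CPM in WT Mono cells, against 1693 and 6082 CPM in Macro cells and 13794 and 10449 CPM in Neu cells. Fn1 (fibronectin), high in many classical monocytes, had 0 UMIs in TG Mono cells, where the 3 counts set in place of 0 for ratios would be 5.02 CPM, and 1 UMI in WT Mono cells. Csf1r, the receptor that monocytes and macrophages need to survive, was at 224 and 214 CPM, against 629 and 398 CPM in Macro cells. Cx3cr1 measured 38.4 CPM in TG against 11.5 CPM in WT Mono cells, against 201 and 131 CPM in Macro cells.

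Several genes of the neutrophil list were at high levels. S100a9 (chr3:90692632-90695721, minus strand) took 2.75% of all UMIs of TG and 1.83% of those of WT Mono cells, and S100a8 (chr3:90668978-90670035, plus strand) took 2.14% and 1.08%. The S100a8 level was 21386 CPM in TG and 10788 CPM in WT Mono cells, 126 and 156 CPM in Macro cells, and 62117 and 41698 CPM in Neu cells. Csf3r (chr4:126024550-126044440, plus strand) stood at 2862 CPM in TG and at 2960 CPM in WT Mono cells, and at 261 CPM in both groups of Neu cells. Cxcr2 (chr1:74153989-74161246, plus strand) was at 2715 and 3094 CPM in Mono cells, and at 965 and 577 CPM in Neu cells. A UMI of Csf3r was found in 90.7% of TG and 92.2% of WT Mono cells thinned to 1000 UMIs, against 0.562% and 0.736% of mature B cells. For S100a8 the shares were 98.0% and 97.3% in Mono cells, with 9.83% and 4.42% in mature B cells, so UMIs of S100a8 appeared more often in the first library in cells that should lack it. The gene model 2900055J20Rik, named here after its values were seen, took a further 1.36% of UMIs in TG and 1.98% in WT Mono cells.

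**Figure D1:**
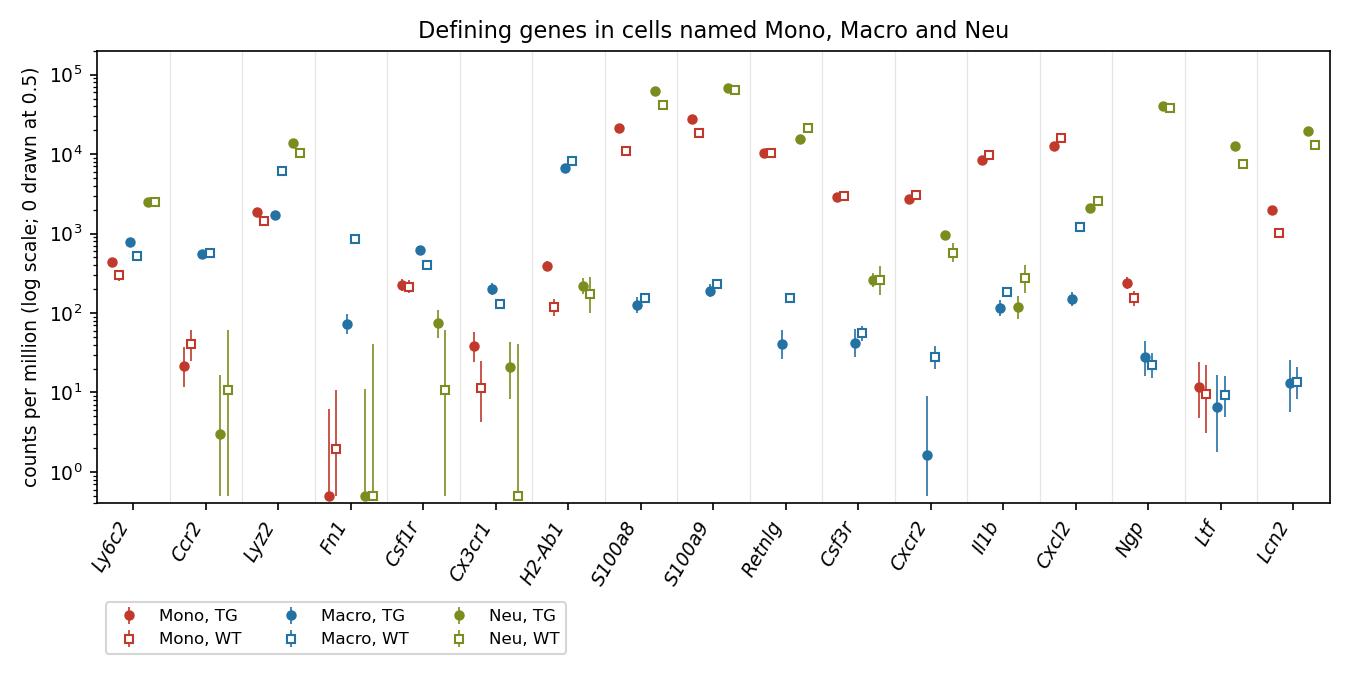
Levels of 17 defining genes in CPM (vertical axis, log scale) in cells named Mono, Macro and Neu of the TG (filled circles) and WT (open squares) library, with 95% counting intervals. Mono cells lie below Macro cells for Ccr2 and H2-Ab1, above both other classes for Csf3r, Cxcr2, Il1b and Cxcl2, and far below Neu cells for the granule genes Ngp and Ltf.

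The marker lists were summed next. The 14 neutrophil markers summed to 71488 CPM in TG and 50144 CPM in WT Mono cells, against 482 and 754 CPM in Macro cells and 244010 and 205710 CPM in Neu cells, and all 14 were detected in Mono cells of both libraries. The classical monocyte list summed to 13315 and 10415 CPM in Mono cells, with 17 and 18 of its 19 measured genes detected, against 7455 and 11993 CPM in Macro cells and 34388 and 29529 CPM in Neu cells, so the TG Mono sum lay above the TG Macro sum and the WT Mono sum below the WT one. In TG Mono cells Gda (2287 CPM), Clec4e (2322 CPM) and Hp (1394 CPM) were among its larger parts, and Chil3 and F13a1, markers of classical monocytes, stood at 10.0 and 0 CPM. The non-classical list summed to 4111 and 3852 CPM in Mono cells, to 6004 and 3549 CPM in Macro cells and to 6175 and 5388 CPM in Neu cells. Kupffer cell and macrophage markers reached 963 and 894 CPM, with 13 of 18 at 0 in TG and 11 in WT Mono cells, and conventional dendritic cell markers 102 and 113 CPM. In TG Macro cells 13 of the 18 Kupffer cell markers were at 0 as well, and in WT Macro cells 0, so the TG zeros do not set Mono cells apart. In Neu and mature B cells 12 and 12 were at 0 in TG, and 13 and 3 in WT. In the deposited counts 630 genes had no UMI in any TG cell, for a reason not given. The TG zeros of this list are therefore not read as a loss in TG cells, and its TG and WT sums are not compared. The basophil and mast cell list reached 2123 and 2422 CPM, nearly all of it from Hdc, the histidine decarboxylase gene, at 2111 and 2409 CPM, with 6 of its 9 genes detected.

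**Figure D2:**
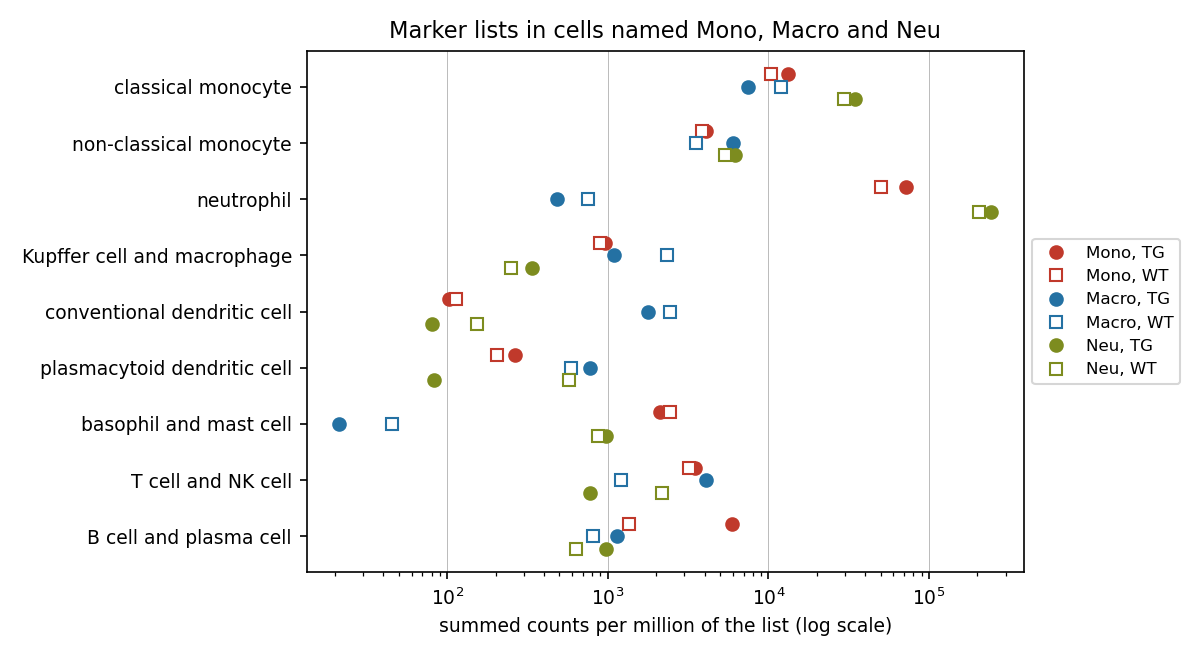
Summed CPM of 9 marker lists (horizontal axis, log scale) in cells named Mono, Macro and Neu, with filled circles for TG and open squares for WT. The neutrophil list separates Mono cells (71488 and 50144) from Macro cells (482 and 754), while the B cell list is higher in TG than in WT Mono cells (5948 and 1355).

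Depth differed between the libraries. TG Mono cells had a median of 2615 UMIs and 1044 genes, and WT Mono cells 1770 UMIs and 818 genes, for 598195 and 522616 UMIs in all. Mitochondrial genes took a median of 0.706% and 0.744% of UMIs, against 4.09% and 4.25% in Macro cells. Ribosomal protein genes took 3.61% and 3.84% of UMIs, against 11.3% and 12.3% in Macro cells. Scrublet called 5 TG and 17 WT Mono cells doublets, and 4 Mono cells had a cell index found in both libraries. At least 2 UMIs of T or B cell lineage genes were held by 37.7% of TG and 19.4% of WT Mono cells.

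Mono cells made up 4.39% (95% interval 3.82 to 5.02) of TG cells and 3.54% (3.13 to 3.99) of WT cells, a difference of 0.847 percentage points (0.135 to 1.59). Of the cells with a myeloid name they made up 44.5% and 33.5%. Of Mono and Neu cells together they made up 79.1% in TG and 93.8% in WT, so there the TG share was the lower, with a difference of -14.7 points (-20.6 to -9.04). Cells under 1500 UMIs made up 0.49% of TG and 24.8% of WT Mono cells, so a UMI limit can set this share, and with at least 1500 UMIs it was 2.83% of WT cells, 1.57 points (0.871 to 2.30) below the TG share. Neu cells made up 1.16% of TG and 0.233% of WT cells, and Macro cells 2.35% and 3.58%.

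Mono cells were next set against Macro cells within each library. A gene was called when its log2 ratio passed 1 in size, with an interval that excluded 0, in the same direction in both libraries. Of 8968 genes tested, 777 (8.66%) were higher and 2247 (25.1%) lower in Mono cells. Scaling by the trimmed mean of M values (TMM) gave 1248 higher and 1052 lower, as it shifts the point of no difference to a log2 ratio of -0.72 in the TG and -0.45 in the WT library. The median gene lay at -0.76 and -0.70, and at -0.82 for the mean of both libraries. The 12 highest genes by the interval bound nearest 0 were Cxcr2, Il1f9, Asprv1, Chil1, Retnlg, S100a8, Lcn2, S100a9, H2-Q10, Hdc, Il1b and Csf3r. Cxcr2 had a log2 ratio of 10.70 in the TG and 6.80 in the WT library, although only 1 UMI in TG Macro cells stood behind the first. Lcn2, the gene of lipocalin 2, which binds bacterial siderophores, had 7.26 and 6.22.

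Several genes of interleukin-1 signalling stood far above the Macro level. Il1b (chr2:129364570-129371139, minus strand), the gene of the fever cytokine IL-1β, measured 8474 CPM in TG against 9615 CPM in WT Mono cells, against 116 and 184 CPM in Macro cells. Il1r2, the decoy receptor, was at 1078 and 1594 CPM against 19.6 and 32.2 CPM, and Nlrp3, the inflammasome sensor, at 971 and 1473 CPM against 85.0 and 126 CPM. Of 21 tested genes of the inflammatory cytokine and inflammasome list, 11 were higher and 2 lower in Mono cells, where 8.66% of all genes were higher and 25.1% lower, the shares against which the counts that follow are to be read. Cxcl2 (chr5:90903871-90905938, plus strand), the ligand of CXCR2, was at 12752 and 16119 CPM against 152 and 1192 CPM, while of 13 tested chemokine genes 3 were higher and 5 lower. Of 21 tested pattern recognition receptor genes, 11 were higher and 4 lower, the C-type lectin gene Clec4d with log2 ratios of 7.52 and 4.51. Of 17 tested Fc and phagocytic receptor genes, 8 were higher and 4 lower, among the first Lilr4b with 3.78 and 3.67 and Cd300lf with 4.15 and 5.39. Of 24 S100 and antimicrobial genes, 12 were higher and 4 lower, and the median log2 ratio was 1.53, against -0.82 over all genes tested.

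Antigen presentation genes lay at the other end, as did markers of conventional dendritic cells, of which 13 of 16 were lower and 0 higher (median -4.07), so the Macro cells compared carried dendritic cell genes. Of 12 tested genes of the MHC class II and costimulation list, 10 were lower and 0 higher. H2-Ab1 stood at 395 CPM in TG and at 119 CPM in WT Mono cells, against 6754 and 8090 CPM in Macro cells. The 12 lowest genes also held Tifab, Cd209a, Ccnd1, Olfm1, Cbfa2t3, Ms4a6c, H2-Eb1, Flt3, H2-Aa, Irf8 and Ifi205. Irf8, a transcription factor needed for monocyte and dendritic cell development, was at 41.8 and 28.7 CPM against 975 and 1095 CPM. Of 17 tested cathepsin and lysosome genes, 11 were lower and 2 higher (Ctsd and Ctse). All 24 genes named by rank passed the same threshold in the same direction when only Macro cells of cluster 15 were used, the Macro cluster with the most cells, against which 676 of 8053 genes (8.39%) were higher and 1980 (24.6%) lower.

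Since Csf3r and Cxcr2 stood among the leading genes and the neutrophil list was high, Mono cells were also set against Neu cells, a comparison added after the data were seen. Neu cells number 54 in TG and 17 in WT, so this rests on few cells. Of 5967 genes tested, 387 (6.49%) were higher and 319 (5.35%) lower in Mono cells in both libraries. The lowest were Ltf, Ngp, Itgb2l, Adpgk, Cd177, Cybb, Ifitm6, Lcn2, Dstn, Lyz2, Ly6c2 and Anxa1. Of the neutrophil list, 4 of 14 tested genes were higher and 8 lower in Mono cells, with a median log2 ratio of -1.65 against 0.10 over all genes tested, and of the classical monocyte list 3 of 15 were higher and 6 lower. Of 24 S100 and antimicrobial genes, 2 were higher and 11 lower. Ltf (lactoferrin) measured 11.7 CPM in TG against 9.57 CPM in WT Mono cells, against 12829 and 7401 CPM in Neu cells. Ngp (neutrophilic granule protein) was at 239 and 153 CPM against 40073 and 38117 CPM. Of 13 tested cell cycle genes, 11 were lower in Mono cells and 0 higher. The highest were Il1b, Fgl2, Csf1, Ptgs2, Nlrp3, H2-Q10, Tspan13, Ifitm1, Gadd45b, Pim1, Csf3r and Ccl6. Csf1, the macrophage growth factor gene, had log2 ratios of 4.52 and 5.29, and Nlrp3 4.45 and 4.76. Of 21 immediate early and heat shock genes, 13 were higher and 0 lower, with Egr1 at 2.91 and 2.55. Among chemokines 6 of 9 tested were higher and 0 lower.

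The surface antibodies were read as the centred log ratio of counts in each cell, on the natural log scale, as a median over cells. CD44, an adhesion receptor of most leukocytes, stood at 5.03 in TG and 4.87 in WT Mono cells, against 4.24 and 4.01 in Macro cells. It took 56.2% and 44.2% of the antibody counts of Mono cells, but a few cells with high counts can set such shares. CD200 took 2.99% of the counts of WT Mono cells, with a median count of 3 per cell, against 0.197% and 2 in TG. The CD44 shares of TG and WT are therefore not compared. CD24, a sialoglycoprotein of neutrophils and B cells, stood at 1.88 and 1.96 against 0.251 and 0.846 in Macro cells, and at 1.75 and 1.64 in Neu cells. CD11c, an integrin of dendritic cells and macrophages, stood at 0.164 and 0.248 against 1.66 and 1.85 in Macro cells. CD49d, the integrin that lets monocytes and lymphocytes bind VCAM-1, stood at 1.61 and 1.33 against 3.20 and 3.05. The quartile ranges of Mono and Macro cells did not overlap in either library for CD44, CD24, CD41 and CD95, higher on Mono cells. The same held for CD49d and CD11c, lower on Mono cells. For all others of the 49 antibodies the ranges overlapped in 1 or both libraries. CD16/32, the low-affinity Fc receptors, stood at 2.42 in TG and 1.88 in WT Mono cells. On Macro cells it was at 2.5 and 2.13, and on Neu cells at 2.88 and 2.44. CD43 was at 1.31 and 1.86 on Mono, 1.44 and 1.41 on Macro and 1.78 and 2.40 on Neu cells. For both antibodies Mono cells were nearer to Macro than to Neu cells, and the quartile ranges of Mono and Macro cells overlapped in both libraries. The Ly-6G antibody had 2 counts over all TG and 1 over all WT Mono cells, and 1 and 0 over Neu cells, so it gave no signal by which to compare classes. Antibodies to CD45R (0.295 and 0.410) and CD3 (0.258 and 0.294) were low on Mono cells, with CD45R, an isoform of CD45 found on B cells, at 3.87 and 3.65 on mature B cells. The CD4 antibody stood at 0.873 in TG and 0.300 in WT Mono cells, and at 0.804 and 0.350 on mature B cells of the same libraries.

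**Figure D3:**
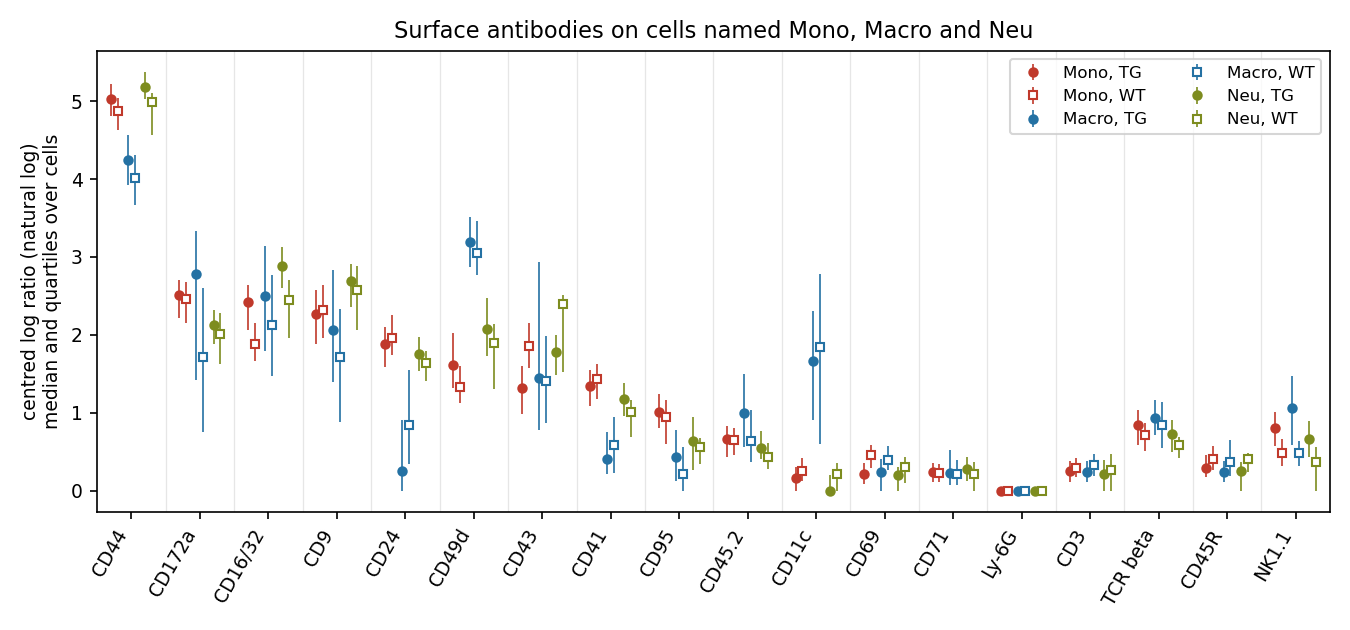
Median centred log ratio (natural log, vertical axis) of 18 surface antibodies on cells named Mono, Macro and Neu, with quartiles over cells as bars, filled circles for TG and open squares for WT. Mono cells lie nearer to Neu than to Macro cells for CD24 (1.88 and 1.96), CD49d (1.61 and 1.33), CD44, CD41, CD95 and CD11c. They lie nearer to Macro than to Neu cells for CD16/32 (2.42 and 1.88) and CD43 (1.31 and 1.86). Mono cells lie below Macro cells for CD11c (0.164 and 0.248), and Ly-6G is at 0 in every class.

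TG Mono cells were then compared with WT Mono cells, over 5027 genes with at least 20 UMIs. By the threshold of 1 on the log2 scale with an interval that excludes 0, 172 genes (3.42%) were higher and 200 (3.98%) lower in TG. TMM scaling gave 218 higher and 157 lower, and leaving out the Scrublet doublets 210 and 152. Both lists of interferon-response genes held many members that were higher. The TG library also held the IFN-γ ARE-Del-/- animals, and whether RNA or cells of theirs contributed to these values was not tested. Of 22 tested genes of the interferon-γ list, 13 were higher and 0 lower, with a median log2 ratio of 1.50, against -0.08 over all genes tested. Of 29 tested type I interferon-stimulated genes, 12 were higher and 0 lower, with a median of 0.81. With each cell thinned to 1000 UMIs, 12 of 15 and 11 of 24 tested genes of these lists were higher, against 117 of 2910 over all genes tested.

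Gbp2 (chr3:142620602-142638008, plus strand), a guanylate-binding GTPase that attacks vacuoles of pathogens, stood at 759 CPM in TG and at 86.1 CPM in WT Mono cells, a log2 ratio of 3.14 (2.70 to 3.62). A Gbp2 UMI was found in 38.2% of TG and 8.14% of WT Mono cells after thinning, with 5.99% and 1.47% of mature B cells. Zbp1, a sensor of Z-form nucleic acids, was at 176 and 17.2 CPM, with a log2 ratio of 3.35 (2.37 to 4.52) from 105 and 9 UMIs. Cd274, the gene of the checkpoint ligand PD-L1, was at 318 and 70.8 CPM, with a log2 ratio of 2.17 (1.65 to 2.72), and Irf1 at 1326 and 482 CPM, with 1.46 (1.25 to 1.67). Gbp7, Igtp, Ifi47, Irgm1, Irgm2, Tap1 and Psmb9 lay between 1.49 and 2.07. Cxcl10, a chemokine gene of the same list, ran the other way at 196 and 308 CPM, with a log2 ratio of -0.66 (-1.01 to -0.30), and 62.4% of its TG and 59.0% of its WT UMIs came from the 3 richest cells. Slfn4, at 2138 and 1705 CPM, had 0.33. The receptor genes Ifngr1 (114 and 138 CPM), Ifngr2 (164 and 91.8 CPM), Ifnar1 (40.1 and 45.9 CPM) and Ifnar2 (63.5 and 63.1 CPM) did not pass the threshold.

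In other cells of the same 2 libraries, Gbp2 gave a TG over WT log2 ratio of 1.65 in Macro cells and 1.68 in mature B cells. Zbp1 gave 1.67 and 1.21. Macro cells of clusters 15, 22 and 27 numbered 89, 20 and 0 in TG, and 158, 80 and 23 in WT. What this mix adds to the Macro ratios was not tested. Neu cells had 13 Gbp2 and 23 Zbp1 UMIs in TG and 0 of either in WT. The interferon-γ list summed to 6535 CPM in TG and 2499 CPM in WT Mono cells, to 5210 and 3438 CPM in Macro cells, to 1470 and 1012 CPM in Neu cells and to 3529 and 2210 CPM in mature B cells. The type I list summed to 12782 and 7426 CPM in Mono, 5230 and 4000 CPM in Macro, 6407 and 3037 CPM in Neu and 2200 and 1495 CPM in mature B cells. Both sums were thus higher in the TG library in all 4 classes, which share their libraries, and the difference between classes was not tested.

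**Figure D4:**
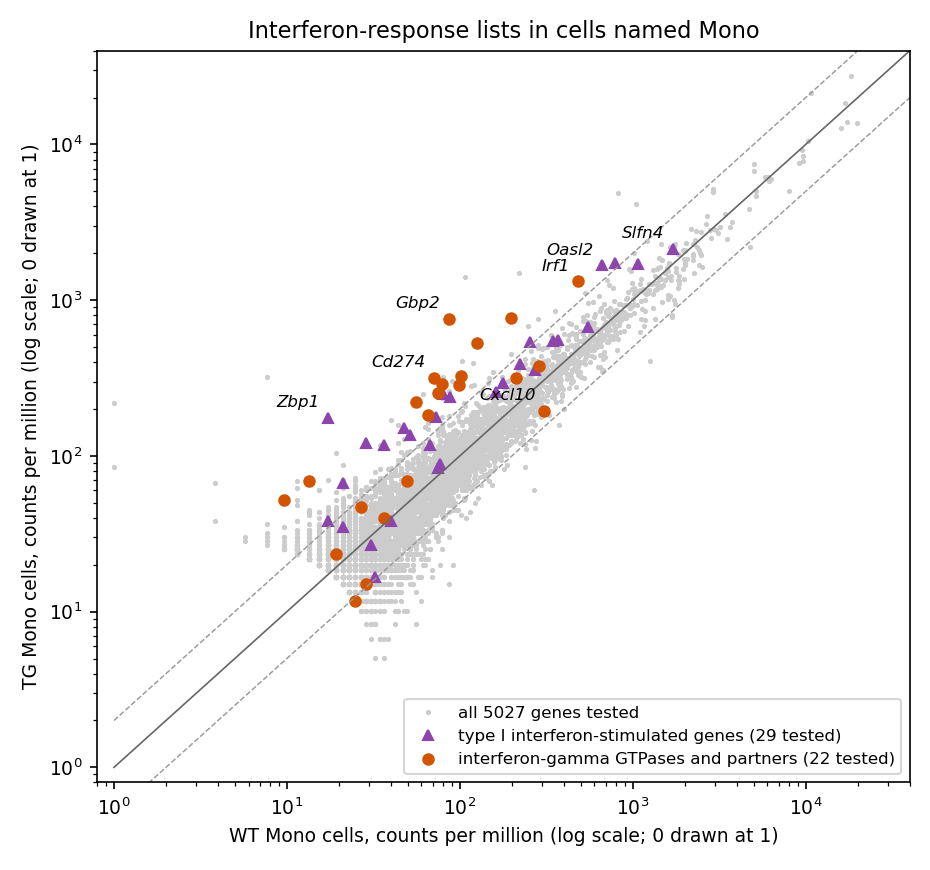
Level of each gene in TG (vertical axis) against WT (horizontal axis) Mono cells in CPM, both on log scales, with all 5027 tested genes in grey and the 2 interferon lists in colour. The solid line marks equal levels and the dashed lines a 2-fold difference, and Gbp2 (759 against 86.1) and Zbp1 (176 against 17.2) lie farthest above it among the genes labelled.

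The promoters of interferon-response genes are shown since 25 of the genes tested in both lists were higher in TG, while 26 did not pass the threshold. Interferon-γ acts through the GAS letters TTCNNNGAA and type I interferon through the ISRE, searched here as its core GAAA, any 2 bases, GAAA, each on both strands. Windows of 300 bases around the RefSeq start site (GRCm38.p6) were found for 20 of the 25 interferon-list genes past the threshold. GAS letters stood in 7 of these 20 and ISRE letters in 13, against 8.47% and 3.49% of 27025 promoters. Of the 19 with a window among the 26 listed genes tested that did not pass, 2 held GAS and 9 held ISRE letters. The lists hold known interferon targets, so these counts describe the lists and not the TG cells. The 250 bases before the start site follow, 5′ to 3′ on the strand of the gene, for Irf1 (chr11:53769764-53770013), Gbp2 (chr3:142620413-142620662), Gbp7 (chr3:142530086-142530335) and Ifit3 (chr19:34583279-34583528), all on the plus strand, with GAS and ISRE matches in capitals.
Irf1: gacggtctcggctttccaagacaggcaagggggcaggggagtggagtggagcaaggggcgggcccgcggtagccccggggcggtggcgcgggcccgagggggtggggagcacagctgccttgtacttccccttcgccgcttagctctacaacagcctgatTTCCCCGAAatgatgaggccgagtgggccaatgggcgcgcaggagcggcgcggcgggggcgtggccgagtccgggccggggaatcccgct
Gbp2: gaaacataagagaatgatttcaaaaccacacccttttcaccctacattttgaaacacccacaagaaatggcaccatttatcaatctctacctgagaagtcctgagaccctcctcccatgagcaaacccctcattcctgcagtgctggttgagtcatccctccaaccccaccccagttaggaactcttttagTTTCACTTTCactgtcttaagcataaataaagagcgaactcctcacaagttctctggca
Gbp7: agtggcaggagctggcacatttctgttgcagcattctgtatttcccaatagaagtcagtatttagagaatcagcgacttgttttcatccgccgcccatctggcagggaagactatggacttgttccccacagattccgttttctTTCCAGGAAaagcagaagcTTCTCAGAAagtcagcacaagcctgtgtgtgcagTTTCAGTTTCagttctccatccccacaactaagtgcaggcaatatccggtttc
Ifit3: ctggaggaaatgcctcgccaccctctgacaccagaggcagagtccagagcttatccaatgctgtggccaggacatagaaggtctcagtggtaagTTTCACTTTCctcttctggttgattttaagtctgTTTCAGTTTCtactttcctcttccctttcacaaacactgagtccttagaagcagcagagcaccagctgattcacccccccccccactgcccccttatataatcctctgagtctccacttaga
Irf1 has a GAS match from base -90 to -82 before its start site and Gbp2 an ISRE match from -59 to -50. Gene spans given in the text are those of GENCODE, and the RefSeq start site of Gbp2 lies downstream of its GENCODE start (chr3:142620602). The Gbp2 match therefore lies inside the gene span given above. Gbp7 has GAS matches from -106 to -98 and from -87 to -79 and an ISRE match from -53 to -44, and Ifit3 has ISRE matches from -156 to -147 and from -122 to -113. No match overlapped another. Among the 12 genes highest over Macro cells, all with a window, TTGCGCAA (C/EBP), AAAGGTCA (NBRE, bound by NR4A factors) and AGGAAGTG (PU.1) stood in 0, 0 and 1 (S100a8), against 0.185%, 1.46% and 4.19% of all promoters.

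Several genes outside these lists were also higher in TG. Wfdc17, a small whey acidic protein family member, measured 1498 CPM in TG against 220 CPM in WT Mono cells, a log2 ratio of 2.77 (2.49 to 3.06). Ifitm1, a membrane protein gene that restricts viruses, was at 4137 and 1039 CPM, with 1.99 (1.86 to 2.13). Steap4, a metalloreductase gene, was at 249 and 61.2 CPM, with 2.02 (1.47 to 2.62), and Ctss, the cathepsin S gene, at 321 and 80.4 CPM, with 2.00 (1.51 to 2.52). Plac8 and Ifitm6 had 1.99 and 2.07. Flot2 had 4.13 (2.18 to 7.22) from 40 UMIs in TG and 2 in WT. The inflammasome genes Casp1 (102 and 47.8 CPM), Casp4 (174 and 70.8 CPM) and Pycard (46.8 and 17.2 CPM) were the 3 higher of 16 tested genes of the inflammatory cytokine and inflammasome list, where 3.42% of all genes were higher. Of these 16 ratios 10 lay below 0 (median -0.16). In TG the 3 richest cells held 67.9% of the UMIs of Pycard. Il1b had a log2 ratio of -0.18 and Nlrp3 -0.60. Of the neutrophil list, 2 of 13 tested genes were higher (Ly6g with 1.61 and Mmp8 with 1.06) and 1 lower (Camp with -2.05), against 3.42% and 3.98% of all genes. S100a8 had 0.99 and S100a9 0.59. At least 3 UMIs of Ngp, Camp and Ltf were held by 14 TG and 1 WT Mono cells, and without them 167 genes were higher and 189 lower.

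B cell RNA also differed between the libraries. The list of B and plasma cell genes summed to 5948 CPM in TG and 1355 CPM in WT Mono cells, of which Igkc, the immunoglobulin light chain gene, gave 4901 and 827 CPM, and in Macro cells Igkc gave 667 and 345 CPM. The 3 richest Mono cells held 83.1% of the Igkc UMIs in TG and 71.1% in WT. The MHC class II genes H2-Ab1 (log2 ratio 1.73) and H2-Aa (1.28), which B cells express strongly, were the 2 higher of 7 tested genes of the MHC class II and costimulation list, of which Cd80 (-1.25) was lower, where 3.42% of all genes were higher and 3.98% lower. Without the cells that held T or B lineage UMIs, 15 of 19 genes of the interferon-γ list and 14 of 25 of the type I list were higher in TG, against 166 of 3645 over all genes tested.

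**Figure D5:**
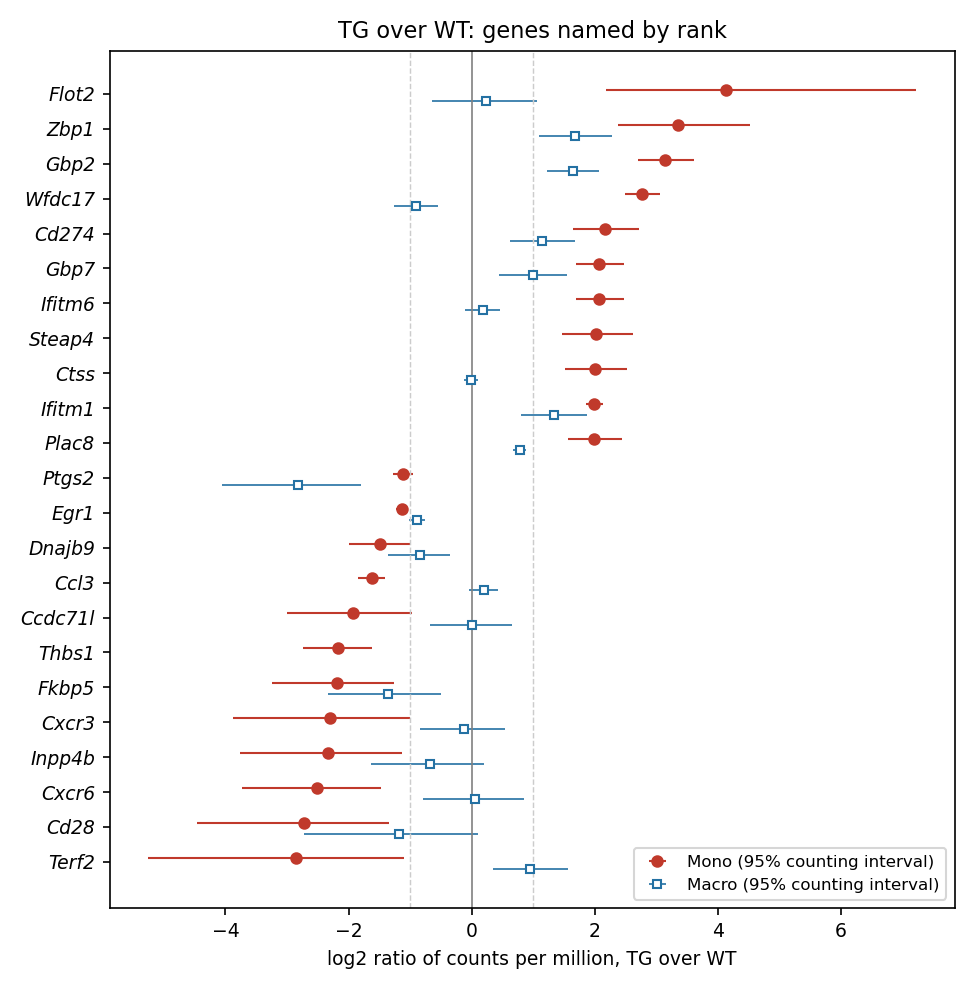
Log2 ratio of CPM, TG over WT, for genes named by rank in cells named Mono (filled circles) and Macro (open squares), with 95% counting intervals and dashed lines at a 2-fold difference. Zbp1 (3.35) and Gbp2 (3.14) are above 0 in both classes, Wfdc17 (2.77) is above 0 in Mono and below it in Macro cells, and Thbs1 and Steap4 have no Macro point because a group of Macro cells had no UMI. The cluster mix of Macro cells differed between the libraries.

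Among genes lower in TG, Ccl3, a chemokine gene, stood at 410 CPM in TG and at 1265 CPM in WT Mono cells, a log2 ratio of -1.63 (-1.84 to -1.41). Thbs1, the gene of thrombospondin 1, which activates latent TGF-β, was at 60.2 and 270 CPM, with -2.16 (-2.74 to -1.63). Ptgs2, the gene of the inducible cyclooxygenase, was at 779 and 1693 CPM, with -1.12 (-1.29 to -0.96). Egr1, an immediate early transcription factor gene, was at 2185 and 4770 CPM, with -1.13 (-1.22 to -1.03). Of 21 tested immediate early and heat shock genes, 3 were lower (Egr1, Egr2 and Fosb) and 0 higher, where 3.98% of all genes were lower, and 19 of the 21 ratios lay below 0, with a median of -0.30. Over all genes tested 2836 of 5027 ratios lay below 0, with a median of -0.08. Dnajb9, Fkbp5 and Ccdc71l had -1.49, -2.19 and -1.93.

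Of 13 tested genes of the TGF-β pathway, 1 (Thbs1) was lower and 0 higher, and 12 ratios lay below 0, with a median of -0.49, against 2836 of 5027 below 0 over all genes tested. With 1 of 13 called, the list's count was close to the 3.98% of all genes that were lower. Tgfbr2 measured 86.9 CPM in TG against 115 CPM in WT Mono cells, a log2 ratio of -0.40, and Tgfb1 at 41.8 and 67.0 CPM. For the lists that follow, the shares over all genes tested were 3.42% higher and 3.98% lower, with a median log2 ratio of -0.08. Of 24 S100 and antimicrobial genes, 3 were higher (Wfdc17, Wfdc21 and S100a4) and 1 lower (Camp), with a median of 0.42. The classical monocyte list had 2 higher (Plac8 and Ifitm6) and 1 lower (Thbs1) of 14, and the non-classical list 2 higher (Cx3cr1 and Smpdl3a) and 1 lower (Treml4) of 15. The Cx3cr1 log2 ratio of 1.74 had a wide interval, from 0.41 to 3.33. Cathepsins and lysosome genes had 2 higher (Ctss and Grn) and 0 lower of 15, and lipid and iron genes 0 higher and 2 lower (Lipa and Gpx4) of 13. Myeloid transcription factors had 1 higher and 1 lower of 23, and chemokine receptors and adhesion genes 1 and 1 of 18. Of the remaining lists, Fc receptors (0 higher and 0 lower of 14), pattern recognition receptors (0 and 0 of 16), growth factor and cytokine receptors (0 and 0 of 19) and chemokines (0 and 1 of 8) had few or no genes past the threshold.

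The other genes named as lowest in TG include some of T cells. Cxcr6 had 9 UMIs in TG and 45 in WT, Cd28 had 5 and 29, Cxcr3 had 6 and 26, Inpp4b had 7 and 31, and Terf2, a telomere-binding protein gene, had 3 and 19. Their log2 ratios lay between -2.86 and -2.31. Without the cells that held T or B lineage UMIs, Cxcr6 had -0.54 (-3.22 to 1.82), Cd28 -2.12 (-7.69 to 1.04), Cxcr3 -0.80 (-6.68 to 3.46), Inpp4b -1.26 (-3.37 to 0.50) and Terf2 -2.12 (-5.35 to 0.11), so none of the 5 passed the threshold. That filter drops cells by T and B lineage genes and leaves few UMIs. It therefore cannot show which cells the lower TG values came from. The T and NK cell list summed to 3474 CPM in TG and 3203 CPM in WT Mono cells, with 1 of its 14 tested genes higher (Gzma) and 2 lower (Trac and Prf1) in TG, and 11 of the 14 ratios below 0 (median -0.54). Over all genes tested 3.42% were higher and 3.98% lower, and 2836 of 5027 ratios lay below 0 (median -0.08).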

How the data were processed

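Cells, names and clusters were taken from the study's filtered cell table, and samples were grouped by its TG and WT labels. The deposited RNA values are UMI counts per gene; the authors aligned reads to mm10 with STAR in the BD Rhapsody pipeline, filtered cells and genes, integrated with CCA in Seurat and clustered. Among the deposited counts, 995 genes had no UMI in any cell of one genotype (630 in TG and 365 in WT), for a reason not given in the sources used here. These were left out of the genes tested in TG over WT and in every comparison of Mono cells with other classes. Deposited antibody values are counts and their centred log ratio on the natural log scale. Mitochondrial percent values are those the authors deposited in the cell table. The deposited counts of both libraries were read for 18 genes.

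Counts were summed per class and genotype and scaled to 1000000 (CPM), with exact Poisson intervals. Log2 ratios carry exact conditional binomial intervals, shares Clopper-Pearson intervals and differences of shares Newcombe intervals. A side at 0 was set to 3 counts. UMIs come from cells of 1 library per genotype, so no p-value was computed. Tools were Python 3.11.15, scipy 1.17.1, scanpy 1.11.5 (Scrublet, expected rate 5%) and edgeR 4.0.16 (TMM factors only). The ratio and call were tested on simulated counts with counting error only, without variation between cells, animals or libraries. Genes named are the 12 highest and 12 lowest by the interval bound nearest 0, with at least 20 UMIs, under 50% of the higher side's UMIs in its 3 richest cells and 1 direction under every scaling, and the members of fixed lists. Immunoglobulin, T cell receptor, mitochondrial, ribosomal, sex-linked, Gm and Rik genes were left out of the ranks. Genes of close families (Gbp, Ifit, Ifitm, Ly6, H2) can share reads, and UMI counts are not divided by length. The cells and lists were chosen with earlier results of these data known. Some genes and antibodies are not reported here.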

Additional observations from a re-analysis of the deposited data

Results flagged for a closer look

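Wfdc17 and Terf2 had TG over WT ratios on opposite sides of 0 in Mono and Macro cells, each with a counting interval that excludes 0. The difference between the classes was not tested. The cluster mix of Macro cells also differed between the libraries. Clusters 15, 22 and 27 held 89, 20 and 0 TG cells, and 158, 80 and 23 WT cells. Its part in the Macro ratios was not tested. Wfdc17 had a log2 ratio of 2.77 (2.49 to 3.06) in Mono and -0.90 (-1.26 to -0.55) in Macro cells. Terf2 had -2.86 (-5.26 to -1.09) in Mono cells, from 3 and 19 UMIs, and 0.95 (0.34 to 1.56) in Macro cells. Without cells holding T or B lineage UMIs Terf2 had -2.12 (-5.35 to 0.11) in Mono cells, and when thinned -1.98 (-7.55 to 1.18), so neither interval excludes 0.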

How the results depend on the processing

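All 24 genes named for TG over WT, and all 24 for Mono over Macro, lay on the same side of 0 under every alternative run that kept Macro cells as the comparator. The genes were chosen to keep 1 direction under every scaling, and for Mono over Macro in each library too. Their agreement under those alternatives, and without a minimum number of UMIs, was therefore fixed in advance. Against Neu cells, S100a8 (-1.54 and -1.95), S100a9 (-1.29 and -1.80), Lcn2 (-3.27 and -3.70), Retnlg (-0.55 and -1.07) and Chil1 (-1.09 and -1.55), all above 0 against Macro cells, lay below 0 in the TG and the WT library. H2-Aa (0.82 and 0.10) and H2-Eb1 (0.60 and 0.98) turned above 0 in both, and H2-Ab1, Irf8, Cbfa2t3 and Ms4a6c in the TG library alone. Under TG over WT, 5 lost the call without cells holding T or B lineage UMIs, 5 when thinned, and 2 without Scrublet doublets. The called genes of the interferon-γ list numbered 12 to 15 and those of the type I list 11 to 14 over the alternatives. Without thinning, the TG minus WT difference in cells with a UMI moved by more than the counting error of the TG share for 16 of 24 genes. The 17 genes with a ratio from the library files had the same ratios there, which shows only that both hold the same counts for these cells. Genes lower in TG fell from 200 to 108 without cells holding T or B lineage UMIs (3645 tested) and to 91 when thinned to 1000 UMIs (2910 tested), with fewer genes tested in both. Against Macro cells, TMM scaling gave 1248 higher and 1052 lower, and Neu cells as the comparator gave 387 and 319. Within a single library, Mono over Macro gave 961 to 1101 higher and 2959 to 3333 lower. The share of Mono cells among myeloid names was 44.5% in TG and 33.5% in WT, 11.1 points apart, and the WT share with at least 1500 UMIs was 2.83%. The TG minus WT difference of the CD71 antibody changed sign as a share of counts, to -0.0109 points.

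The classical against non-classical comparison and the ratio within each cluster could not be run, because all Mono cells lie in 1 cluster, whose share was 100% under each alternative. No paired analysis was possible because each group has 1 library. The alternatives with Neu cells, Macro cluster 15, the 1500 UMI limit and the granule gene limit were chosen after seeing the data. Depth limits genes under about 20 UMIs.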
